A study of Ovis aries with 9 samples.

Results

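The genes described here are 10 regulators of mitochondrial biogenesis and dynamics in sheep liver: PPARGC1A, PPARGC1B, ESRRA, NRF1, TFAM, POLG, MFN1, MFN2, OPA1 and DNM1L. They were taken by gene symbol from a table of 21257 genes, and all 10 were listed in it. Male Tan sheep, a fat-tailed Chinese breed, aged 5 months, received a basal diet (control) or that diet with 1% or 2% succinate, an intermediate of the tricarboxylic acid cycle, for 60 days after a pretrial of 10 days. Of the 30 sheep in the trial, 2 shared each stall and each diet had 5 stalls; liver libraries number 9, with 3 for each diet. No label links a library to an animal, so the p-values rest on library-to-library spread, part of which may be technical. One conflict concerns library 3 of the 1% group, whose title reads 2%. The series' design text calls the 1% group T1 and the 2% group T2, whereas libraries named T2 carry the 1% treatment label and those named T3 the 2% label, so the assignment of doses rests on the treatment label. Library 3 was kept at 1%, and values without it or with it at 2% are given where they change a separation of groups or move a change against control by over 1.5 times.

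Mitochondrial biogenesis is driven by coactivators of the PGC-1 family, which bind transcription factors such as ESRRA and NRF1 and raise the expression of nuclear genes for the respiratory chain and for upkeep of the mitochondrial genome. TFAM packages that genome and activates its transcription, and the polymerase POLG copies it. The shape of the mitochondrial network follows from fusion, carried out by MFN1 and MFN2 at the outer membrane and OPA1 at the inner membrane, and from fission, carried out by the dynamin-like GTPase DNM1L. In rodent liver PGC-1alpha is induced by fasting and supports gluconeogenesis and fatty acid oxidation.

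Levels are FPKM, fragments scaled by gene model length and library depth, as deposited. The libraries held 13818648 to 18172528 reads by recovery from the FPKM values, with 15911 to 16441 genes above 0. The tissue label matched its markers: ALB, which encodes albumin, stood at 11750 to 43860 FPKM, and ACTA1, the skeletal muscle actin, did not exceed 0.217 FPKM. DES, a muscle marker that stellate cells also express, stood at 5.34 to 11.1 FPKM and made up most of the muscle marker sums of 5.66 to 12 FPKM. The sums of the 6 T and NK cell markers were 22.1 to 33.8 FPKM in controls, 12.6 to 18.1 at 1% and 14.8 to 20.3 at 2%, with none at 0, and all 6 had negative log2 changes at both doses. The 6 stellate cell and fibroblast markers summed to 55 to 68.4, 57.5 to 68.4 and 48.8 to 186 FPKM, and all 6 had positive log2 changes at 2%. Library 2 at 2% was nevertheless below every control for COL1A2, COL3A1, DCN and LUM. Sums of the 8 hepatocyte markers were 41200 to 66100, 53600 to 64300 and 60000 to 71000 FPKM, and those of the 5 Kupffer cell markers 295 to 634, 321 to 422 and 296 to 381. Of the 8 muscle markers CKM was at 0 in all libraries, as was SLC4A1 among the 3 red blood cell markers. In bulk liver, fewer cells of a type and less RNA per cell cannot be told apart, and the part of these markers in the results on the regulators was not tested.

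Tests were made with limma on log2(FPKM + 1) across all genes with at least 1 FPKM in at least 3 libraries, with Benjamini-Hochberg adjustment and a threshold of 0.05. Of the 10 regulators 8 passed this filter. PPARGC1B and NRF1 lay below 1 FPKM in every library, so their tests come from the fit without the filter on 18130 genes, and neither passed in it (0% of genes passed at 1% and 0.0165% at 2%). At 1% succinate 0 of the 8 regulators passed, against 0.0167% of 11944 genes, and at 2% 0 passed, against 0.0502%. At an unadjusted p under 0.05, 2 of 8 were lower and 0 higher at 1% (12.8% of all genes were lower and 2.11% higher), and 1 was lower and 0 higher at 2% (4.12% and 1.06%). The count at 1% was 1 without control 1 or without library 2 or 3 at 1%. The count at 2% was 0 without control 1 or 3, library 2 at 1%, or library 1 or 3 at 2%, and 2 without library 3 at 1%. Voom on recovered reads, in which all 10 regulators could be tested, also gave 0 at each dose, where 0% and 0.0281% of 14247 genes passed. The 8 tested regulators had a median log2 change of -0.23 at 1%, with 7 below 0, while all tested genes had a median of -0.14, with 8190 of 11944 below 0. At 2% the median was -0.21 with 6 of 8 below 0, against -0.06 with 7245 of 11944 below 0. The median of the regulators at 1% was -0.14 without library 3 at 1%, and at 2% it was -0.12 without control 1 and -0.13 without library 3 at 2%. The shift of all genes at 1% became 0.01 after quantile or median-ratio scaling, so changes at 1% are also given relative to it.

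In control liver the regulators spanned a wide range of levels. POLG stood highest at 23.5 ± 5 FPKM and MFN1 next at 22.9 ± 0.93 (SD, n = 3), and their control ranges overlapped. ESRRA followed at 18.4 ± 1.83, MFN2 at 15.1 ± 1.53 and TFAM at 8.93 ± 0.613 FPKM, each with a range that did not overlap its neighbours in this order. OPA1 at 6.63 ± 0.469 and DNM1L at 6.52 ± 0.949 FPKM overlapped each other. PPARGC1A was lower at 4.27 ± 0.826, and PPARGC1B and NRF1 were lowest at 0.561 ± 0.0538 and 0.507 ± 0.0261 FPKM, with overlapping ranges. The low FPKM of NRF1 went with a long gene model, 9.72 times that of DNM1L as implied by reads and FPKM, and its libraries held 207 to 365 reads. PPARGC1B rested on 35 to 94 reads per library, and the lowest count had an exact 95% Poisson interval of 24.4 to 48.7 (counting error only).

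**Figure D1:**
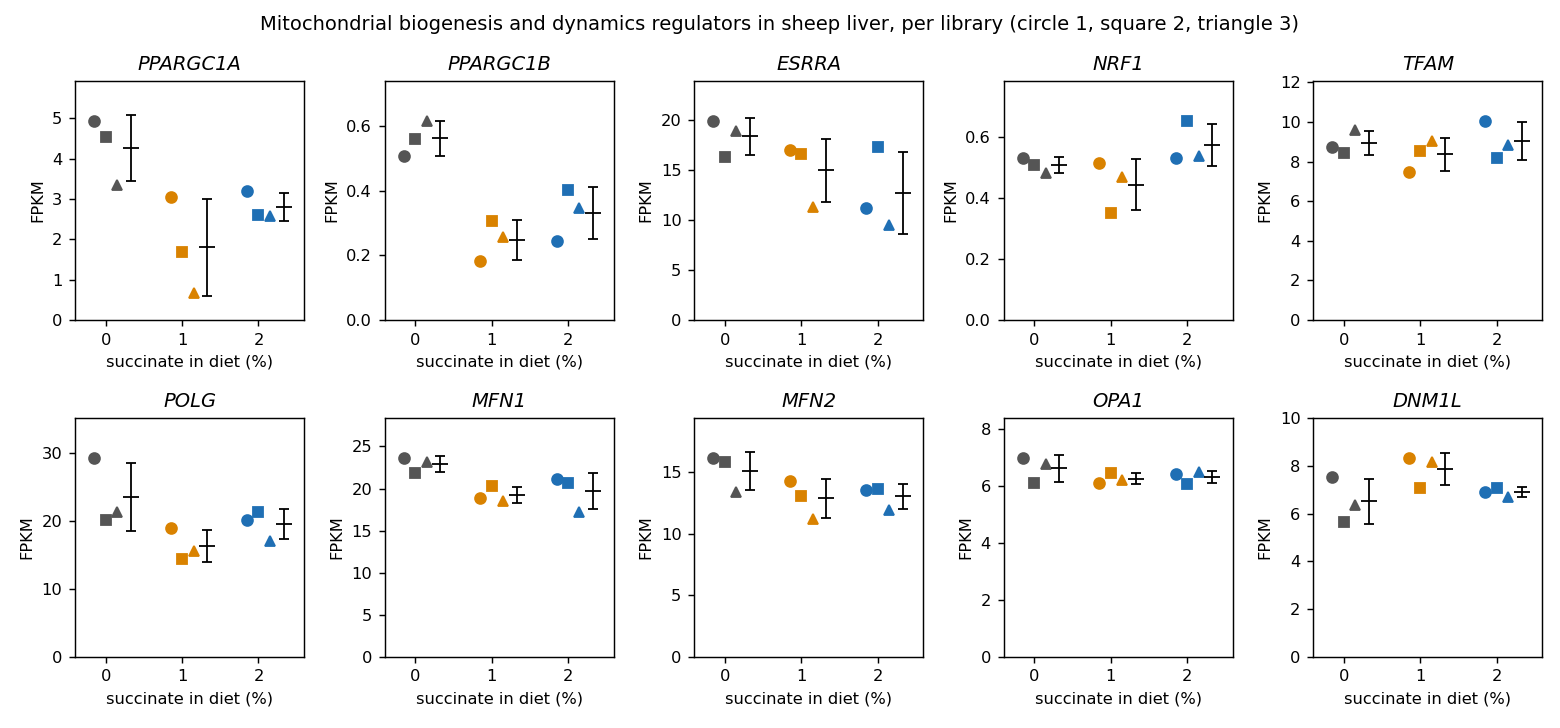
FPKM of each of the 10 regulators (vertical axes, each from 0) in the 9 libraries, by percent of succinate in the diet; symbols mark libraries 1 to 3 of a group and bars the mean ± SD. PPARGC1A, PPARGC1B and MFN1 lie below the lowest control in all 6 succinate libraries, while TFAM and OPA1 overlap between groups.

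PPARGC1A encodes PGC-1alpha, the coactivator named for its binding to PPAR gamma. It measured 4.94, 4.53 and 3.35 FPKM in controls 1 to 3, then 3.05, 1.68 and 0.673 in the libraries at 1%, and at 3.19, 2.62 and 2.59 in those at 2%. All 6 succinate libraries were below the lowest control, and those at 1% were spread more widely than those at 2%. The log2 change at 1% was -0.99 (95% interval -1.62 to -0.36, unadjusted p = 0.00594, adjusted p = 0.261, limma), or -0.85 relative to all genes. Its lowest value came from the library of conflicting labels. Without that library the log2 change at 1% was -0.67 (adjusted p = 0.68), and over all 9 fits that left out 1 library the adjusted p ranged from 0.0786 to 0.68. At 2% the change was -0.46 (95% interval -1.10 to 0.17, adjusted p = 0.95), and -0.76 (adjusted p = 0.553) with that library placed at 2%. Voom on the recovered reads gave -1.26 at 1% (SE 0.393, unadjusted p = 0.0098, adjusted p = 0.33). At 2% voom gave -0.54 (SE 0.366, unadjusted p = 0.171, adjusted p = 0.898).

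PPARGC1B encodes PGC-1beta, a related coactivator linked in mouse liver to respiratory gene expression and lipid synthesis. Its FPKM was 0.508, 0.56 and 0.615 in controls, 0.181, 0.305 and 0.258 at 1%, and 0.244, 0.402 and 0.346 at 2%. Every succinate library again lay below every control. The lowest control rested on 76 reads (95% Poisson interval 59.9 to 95.1) and the highest succinate library on 59 (44.9 to 76.1). These intervals overlapped, so the edge of the separation lay within counting error. The log2(FPKM + 1) change was -0.32 at 1% (95% interval -0.47 to -0.17, unadjusted p = 0.00099, adjusted p = 0.258), or -0.25 relative to all genes of the fit without the filter, and -0.23 at 2% (-0.38 to -0.08, unadjusted p = 0.00713, adjusted p = 0.809), a scale that compresses values below 1 FPKM. Voom on the recovered reads gave log2 changes of -1.05 (SE 0.313, adjusted p = 0.33) and -0.71 (SE 0.3, adjusted p = 0.887). In the trend with succinate percent PPARGC1B had a slope of -0.12 per percent (unadjusted p = 0.0451, adjusted p = 0.969, limma without the filter). Within a library PPARGC1A exceeded PPARGC1B by a log2 ratio of 2.91 ± 0.43 in controls, 2.64 ± 1.35 at 1% and 3.11 ± 0.53 at 2%. This ratio was 4.07, 2.46 and 1.39 in the 3 libraries at 1%, the last being the library of conflicting labels. PPARGC1B rested there on 35, 49 and 41 reads, whose 95% Poisson intervals overlapped. PPARGC1A rested there on 434, 199 and 79 reads, whose intervals (394 to 477, 172 to 229 and 62.5 to 98.5) did not overlap. The fall of PPARGC1A across the libraries at 1% was thus not seen in PPARGC1B. This describes 3 libraries and was not tested.

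ESRRA, the estrogen-related receptor alpha that PGC-1alpha binds and that drives respiratory genes, measured 19.9, 16.3 and 18.9 FPKM in controls, then 16.9, 16.6 and 11.3 at 1%, and at 11.2, 17.3 and 9.53 at 2%. Libraries 1 and 3 at 2% and library 3 at 1% were low, the others lay near or within the control range, and the groups overlapped. Its log2 change was -0.30 at 1% (95% interval -0.82 to 0.23, adjusted p = 0.541), or -0.16 relative to all genes, and -0.54 at 2% (-1.06 to -0.02, unadjusted p = 0.0449, adjusted p = 0.95). Without library 3 at 1% its change at 1% was -0.12, and voom gave -0.15. In the trend with succinate percent ESRRA had a slope of -0.27 per percent (unadjusted p = 0.0369, adjusted p = 0.998, limma), the only one of the 8 regulators inside the filter under an unadjusted 0.05. That trend called 0 of 8 regulators and 0.0251% of all genes, 0.0165% without the filter and 0.0211% with voom, each with 0 regulators, and 3.34% of all genes were lower at an unadjusted p under 0.05. On the reference assembly the ESRRA gene overlaps TRMT112, which reached 31.8 FPKM, and reads of the pair cannot be told apart if counting ignored strand, which is not stated.

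NRF1, the nuclear respiratory factor that binds promoters of respiratory genes, was at 0.532, 0.509 and 0.48 FPKM in controls, 0.513, 0.349 and 0.47 at 1%, and 0.53, 0.652 and 0.537 at 2%. The ranges of control and either dose overlapped, while all 3 libraries at 2% were above those at 1%, as in 9.65% of the genes without the filter (2.87% were below). With the library of conflicting labels at 2% the doses overlapped, since its 0.47 FPKM is below library 1 at 1%, and the change at 2% given next became 0.04. On the log2(FPKM + 1) scale the changes were -0.06 at 1% (95% interval -0.22 to 0.09), or 0.01 relative to all genes of that fit, and 0.06 at 2% (-0.09 to 0.22). The difference between doses was 0.12 (-0.03 to 0.28, adjusted p = 0.78).

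TFAM measured 8.73, 8.44 and 9.61 FPKM in controls, then 7.47, 8.55 and 9.07 at 1%, and at 10.1, 8.19 and 8.84 at 2%, with overlapping groups. Its log2 change was -0.09 at 1% (95% interval -0.40 to 0.23), or 0.05 relative to all genes, and 0.01 at 2% (-0.30 to 0.33). Quantile scaling, median-ratio scaling and voom each turned the sign at 1%, and without library 3 at 1% the change was -0.14. POLG, the catalytic subunit of the mitochondrial DNA polymerase, was at 29.3, 20.1 and 21.3 FPKM in controls and at 18.9, 14.4 and 15.5 at 1%. All libraries at 1% were below the lowest control, and control 1 stood above the other controls. At 2% it was at 20.1, 21.3 and 17, overlapping the controls. The log2 change was -0.50 at 1% (95% interval -0.92 to -0.08, unadjusted p = 0.0248, adjusted p = 0.298, limma), or -0.36 relative to all genes, and -0.25 at 2% (-0.67 to 0.17), which became -0.09 without control 1 and -0.16 without library 3 at 2%. POLG overlaps FANCI, which reached 7.28 FPKM, on the reference assembly.

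Among the fusion genes, MFN1 measured 23.7, 21.9 and 23.2 FPKM in controls, then 18.9, 20.3 and 18.5 at 1%, and at 21.1, 20.7 and 17.2 at 2%. Its controls lay close together and above all 6 succinate libraries in FPKM as deposited. The log2 change was -0.24 at 1% (95% interval -0.56 to 0.07, adjusted p = 0.425), or -0.10 relative to all genes, and -0.21 at 2% (-0.53 to 0.10, adjusted p = 0.95), which became -0.12 without library 3 at 2%. With voom the MFN1 changes were -0.09 at 1% (adjusted p = 0.821) and -0.165 at 2% (adjusted p = 0.908). MFN2, the other outer membrane mitofusin, which also tethers mitochondria to the endoplasmic reticulum, was at 16.2, 15.8 and 13.4 FPKM in controls, 14.3, 13.1 and 11.2 at 1%, and 13.6, 13.6 and 11.9 at 2%. Control 3 lay within the range of the succinate libraries, so the groups overlapped. Its log2 changes were -0.22 at 1% (95% interval -0.56 to 0.12), or -0.08 relative to all genes, and -0.20 at 2% (-0.53 to 0.14). Voom gave -0.07 at 1%, and without library 3 at 1% the change there was -0.13. The log2 ratio of MFN2 to MFN1 was -0.60 ± 0.17 in controls, -0.58 ± 0.17 at 1% and -0.59 ± 0.05 at 2%, with group means closer together than the spread within a group of control or 1% libraries.

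OPA1, the inner membrane fusion GTPase whose cleavage by proteases sets the balance of fusion, varied least of the 10 regulators as the ratio of its highest to its lowest library. It measured 7, 6.1 and 6.78 FPKM in controls, 6.11, 6.48 and 6.22 at 1%, and 6.41, 6.08 and 6.49 at 2%. Both doses lay within the control range or just under it. Its log2 change was -0.07 at 1% (95% interval -0.34 to 0.20), or 0.07 relative to all genes, and -0.06 at 2% (-0.33 to 0.22). The sign at 1% turned after quantile scaling, after median-ratio scaling and with voom. Over both doses the intervals reached from -0.34 to 0.22.

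DNM1L, the fission GTPase also called DRP1, which is recruited from the cytosol to constrict mitochondria, was the only tested regulator with a mean above control at 1%. Its FPKM was 7.53, 5.65 and 6.38 in controls, 8.36, 7.1 and 8.16 at 1%, and 6.93, 7.1 and 6.69 at 2%. Libraries 1 and 3 at 1% were above every control, and library 2 at 1% was below control 1. The log2 change at 1% was 0.24 (95% interval -0.07 to 0.56, adjusted p = 0.421, limma), or 0.38 relative to all genes, and voom gave 0.45 (SE 0.129, unadjusted p = 0.0064, adjusted p = 0.33). Without control 2 the change at 1% was 0.16. At 2% it was 0.08 (-0.24 to 0.39), and 0.13 with the library of conflicting labels at 2%. YARS2, which overlaps DNM1L on the reference assembly, reached 4.39 FPKM.

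A ratio within a library does not move with a common scaling of that library. The log2 ratio of DNM1L to MFN1 was -1.65, -1.95 and -1.86 in controls, -1.17, -1.51 and -1.18 at 1%, and -1.61, -1.55 and -1.36 at 2%. Each succinate library had a higher proportion of DNM1L to MFN1 than each control, though control 1 and library 1 at 2% differed by little. Against MFN2 the ratio was -1.10, -1.48 and -1.07 in controls, -0.78, -0.88 and -0.46 at 1%, and -0.97, -0.94 and -0.83 at 2%, and again the succinate libraries were above every control. The ratio to OPA1 was -0.03 ± 0.12 in controls, 0.33 ± 0.17 at 1% and 0.13 ± 0.09 at 2%, with all libraries at 1% above every control and an overlap at 2%. These 3 ratios were chosen after the values of their genes had been seen and carry no test. All 3 share DNM1L as numerator, so their separations are not independent. How many other gene pairs, or ratios of DNM1L to other genes, separate in this way was not computed.

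**Figure D2:**
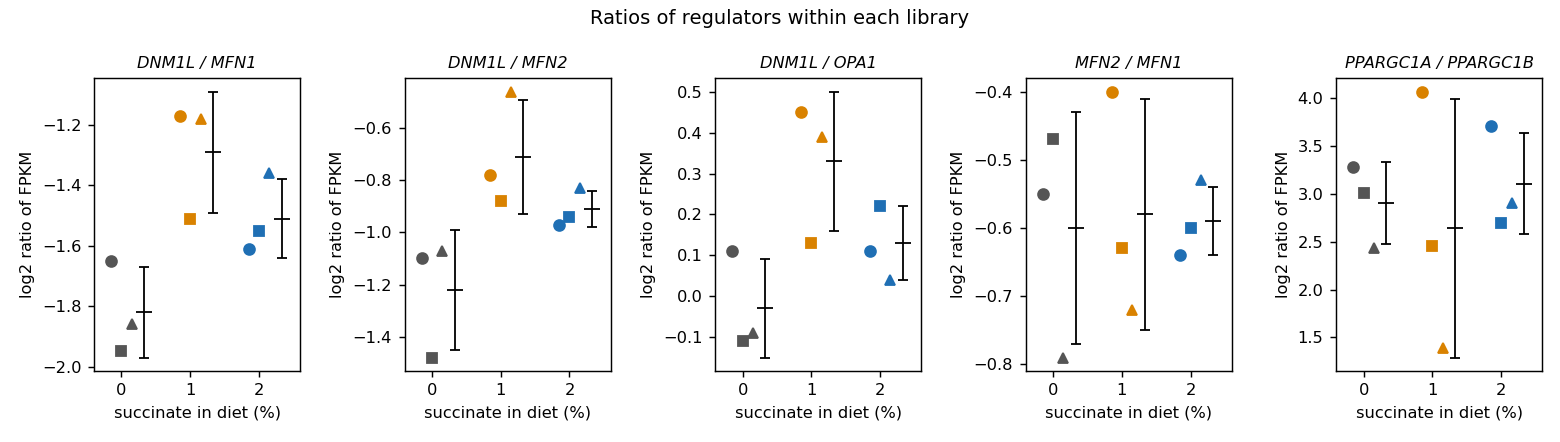
Log2 ratios of FPKM between pairs of regulators in each of the 9 libraries (vertical axes do not start at 0), by percent of succinate; symbols mark libraries and bars the mean ± SD. DNM1L relative to MFN1 and MFN2 is higher in every succinate library than in any control, while MFN2 relative to MFN1 overlaps between groups. The ratios of DNM1L share their numerator, were chosen after the values were seen, and have no background share over other gene pairs.

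Among the 8 tested regulators 3 (PPARGC1A, POLG and MFN1) had all libraries at 1% below all controls, and 0 had them above. The background for this was 15.6% of tested genes below and 2.28% above. At 2% it was 2 of 8 (PPARGC1A and MFN1), against 8.02% below and 2.6% above. PPARGC1B, outside the filter, was below at both doses, where 13.4% and 6.82% of the 18130 genes above 0 in any library were (2.02% and 2.92% were above). Without library 3 at 1% the same 3 tested regulators were below the controls at 1% (18.6% of tested genes, with 3.38% above), and with it placed at 2% the same 2 were below at 2% (6.94%, with 1.47% above). All 6 succinate libraries were below all controls for PPARGC1A, MFN1 and, outside the filter, PPARGC1B, a grouping added after the values were seen, against 3.89% of tested genes (0.469% above). Without library 3 at 1% the background was 4.11% below and 0.636% above. Both doses share the same controls, the shares of regulators rest on 8 genes measured in the same libraries, and no regulator passed the test.

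**Figure D3:**
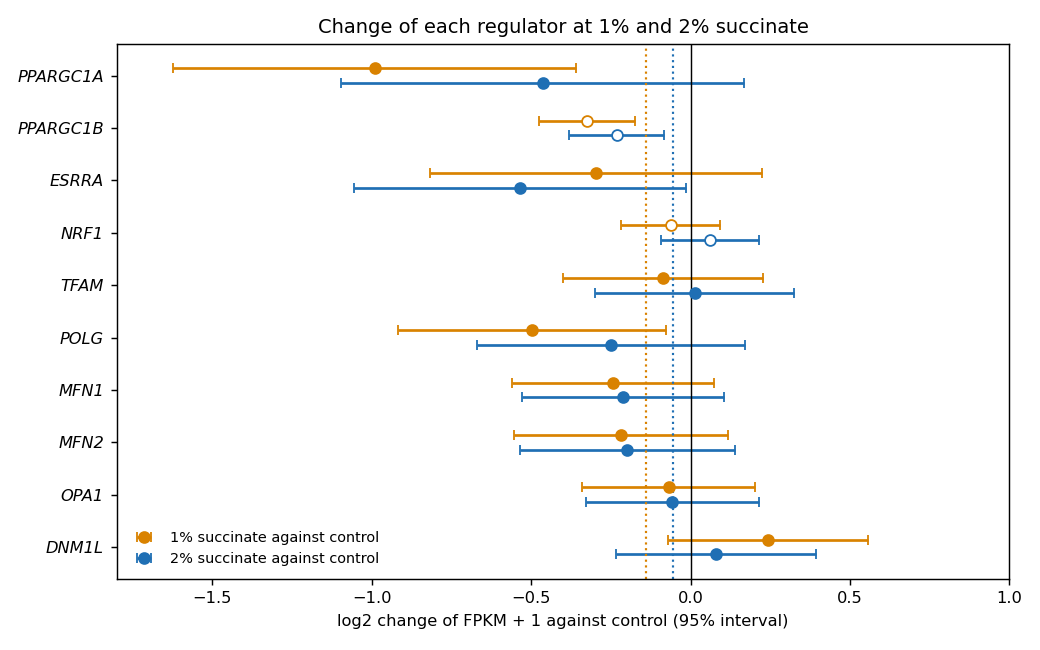
Log2 change of FPKM + 1 against control (horizontal axis) with its 95% interval for each regulator at 1% and 2% succinate; open circles are the 2 genes outside the filter, and dotted lines the median of all tested genes at each dose. The interval of PPARGC1A at 1% lies below 0, from -1.62 to -0.36, and those of TFAM and OPA1 include 0 at both doses.

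The doses were also set against each other. None of the 8 tested regulators passed (0% of 11944 genes passed with limma, and 0% of 14247 with voom), and 0 had an unadjusted p under 0.05, against 6.2% of genes higher and 1.29% lower at 2%. PPARGC1A had a log2 difference of 0.53 at 2% against 1% (95% interval -0.10 to 1.16, adjusted p = 0.702), which became -0.09 when the library of conflicting labels was moved to 2%. DNM1L had -0.16 (-0.48 to 0.15), and all 3 of its libraries at 2% were below all at 1%, as in 3.33% of genes. This separation was 7.095 against 7.097 FPKM, and the doses overlapped with the library of conflicting labels at 2%. MFN1, MFN2 and OPA1 differed by 0.03, 0.02 and 0.01, each with an interval that included 0. These intervals were -0.29 to 0.35 for MFN1, -0.32 to 0.36 for MFN2 and -0.26 to 0.28 for OPA1. With voom they were -0.412 to 0.255, -0.398 to 0.231 and -0.387 to 0.198.

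Related genes were read from lists of the same pathway, in which 0 genes passed in either direction at either dose. Over all tested genes 68.6% were below control at 1% and 60.7% at 2%, and the shares whose groups did not overlap are those given above. Of 18 tested coregulators and transcription factors 13 were below control at 1% (median log2 change -0.09) and 8 at 2% (0.04). PRKAA2, a catalytic subunit of the AMP-activated kinase that phosphorylates PGC-1alpha in mouse muscle, averaged 6.98 ± 1.22 FPKM in controls, 4.08 ± 1.28 at 1% and 5.27 ± 0.807 at 2% (log2 change at 1% -0.67, adjusted p = 0.267). SIRT3, a mitochondrial deacetylase, was at 20.9 ± 1.2, 14.9 ± 4.1 and 18.6 ± 1.51 FPKM. Every library at 1% was below every control for both genes, as for 3 of the 18 in the list and 15.6% of all tested genes. PPARD, a nuclear receptor for fatty acids, had log2 changes of 0.41 at 1% and 0.52 at 2% (adjusted p = 0.95), and PPARA, the fasting receptor of liver, -0.38 and -0.37.

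The 19 tested genes for upkeep and transcription of the mitochondrial genome had medians of 0.01 at 1%, with 9 below control, and -0.11 at 2%, with 11 below. POLRMT, the mitochondrial RNA polymerase, stood at 13.2 ± 1.1, 9.54 ± 0.842 and 11.6 ± 1.95 FPKM (log2 change at 1% -0.43, adjusted p = 0.294). MTERF1, which ends transcription in the mitochondrial ribosomal RNA region, was at 4.76 ± 0.922, 3.11 ± 0.533 and 4.29 ± 0.27 FPKM. Both were below every control at 1%, the 2 of 19 in the list that were, against 15.6% of all tested genes. SSBP1, which coats single-stranded mitochondrial DNA, was in turn above every control at 1%, at 10.5 ± 0.362 against 8.03 ± 1.35 FPKM (log2 change 0.36, adjusted p = 0.315), as was MTERF3 at 10.6 ± 0.521 against 8.58 ± 0.868, together 2 of 19 against 2.28% of all tested genes. Transcripts of the mitochondrial genome itself, 12 of them tested, had medians of 0.15 at 1% and 0.24 at 2%, with members far apart. ND3, a subunit of complex I like the next pair, was at 539.5, 741.8 and 774.3 FPKM in controls, 433.7, 311.8 and 351.4 at 1%, and 245.4, 559.9 and 213.9 at 2%. Its log2 change was -0.90 at 1%, below every control (unadjusted p = 0.0294, adjusted p = 0.31, limma), and -1.13 at 2% with overlap (unadjusted p = 0.00979, adjusted p = 0.886). ND1 had -1.45 at 2% (adjusted p = 0.95), where its libraries were at 285.9, 2556 and 314.2 FPKM against 1528 to 1849 in controls. ND4L had 0.77 at 2%, above every control (unadjusted p = 0.0166, adjusted p = 0.903), as was COX1 at 0.65 (adjusted p = 0.95). ND4L and COX1 were the 2 of 12 in the list above every control at 2%, against 2.6% of all tested genes. ND3 was the 1 of 12 below every control at 1%, against 15.6%. These genes were picked after their values were seen. The list's sums spanned 35900 to 46800 FPKM in controls, 30700 to 62800 at 1% and 40800 to 66800 at 2%, and overlapped.

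Fusion, inner membrane and cristae factors (17 tested) had medians of -0.04 at 1%, with 10 below control, and -0.12 at 2%, with 12 below. Of the 17, 0 were below and 1 above every control at 1%, against 15.6% and 2.28% of all tested genes. At 2% 3 were below and 0 above every control, against 8.02% and 2.6%. APOOL, a cristae organising protein, had a log2 change of -0.73 at 1% (adjusted p = 0.309) and -0.25 at 2%, and USP30, an outer membrane deubiquitinase, -0.34 and -0.14. CHCHD3, another cristae protein, had 0.29 and 0.28, and CHCHD6 -0.25 and -0.41. PLD6 was at 0 in all libraries. Of the 10 tested fission factors 8 were below control at 1% (median -0.08) and 7 at 2% (-0.21). MTFR1, a promoter of fission, was at 7.56 ± 1.39, 5.88 ± 0.72 and 6 ± 0.754 FPKM, SPIRE1, an actin nucleator, at 2.12 ± 0.693, 1.41 ± 0.271 and 1.67 ± 0.224, and MUL1, a mitochondrial ubiquitin ligase, at 9.25 ± 1.12, 9.08 ± 1.04 and 7.12 ± 1.32. MUL1 had all libraries at 2% below every control, and FIS1, an outer membrane fission protein named after its values were seen, had all libraries of both doses below. FIS1 was at 77.5 to 80.6 FPKM in controls, 50.1 to 77.1 at 1% and 65.9 to 68.5 at 2% (log2 changes -0.32 and -0.23, adjusted p = 0.417 and 0.95). That made 1 of 10 fission factors below every control at 1% and 2 of 10 at 2%, against 15.6% and 8.02% of all tested genes.

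Mitophagy receptors and kinases (16 tested) had medians of -0.19 at 1%, with 11 below control, and -0.13 at 2%, with 10 below. ULK1, the kinase that starts autophagy and acts on mitochondria downstream of AMP-activated kinase, had the smallest p of all the related lists at each dose. It measured 39.6, 36.7 and 43.5 FPKM in controls, 24.7, 23.4 and 19.5 at 1%, and 25.5, 20.2 and 24.9 at 2%. The lowest control was well above the highest succinate library. Its log2 change was -0.80 at 1% (SE 0.164, unadjusted p = 0.000706, adjusted p = 0.181, limma) and -0.74 at 2% (SE 0.164, unadjusted p = 0.0012, adjusted p = 0.531). BNIP3L, a receptor that removes mitochondria from maturing red cells, was at 15.9 ± 2.02, 11.7 ± 2.06 and 11.7 ± 0.95 FPKM, and BCL2L13, another receptor, at 24.3 ± 1.36, 18.5 ± 7.04 and 15.6 ± 2.78. For these receptors all libraries at 2%, but not all at 1%, were below every control. ULK1 was the 1 gene of 16 below every control at 1%, against 15.6% of all tested genes. With these receptors the count was 3 of 16 at 2%, against 8.02%.

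**Figure D4:**
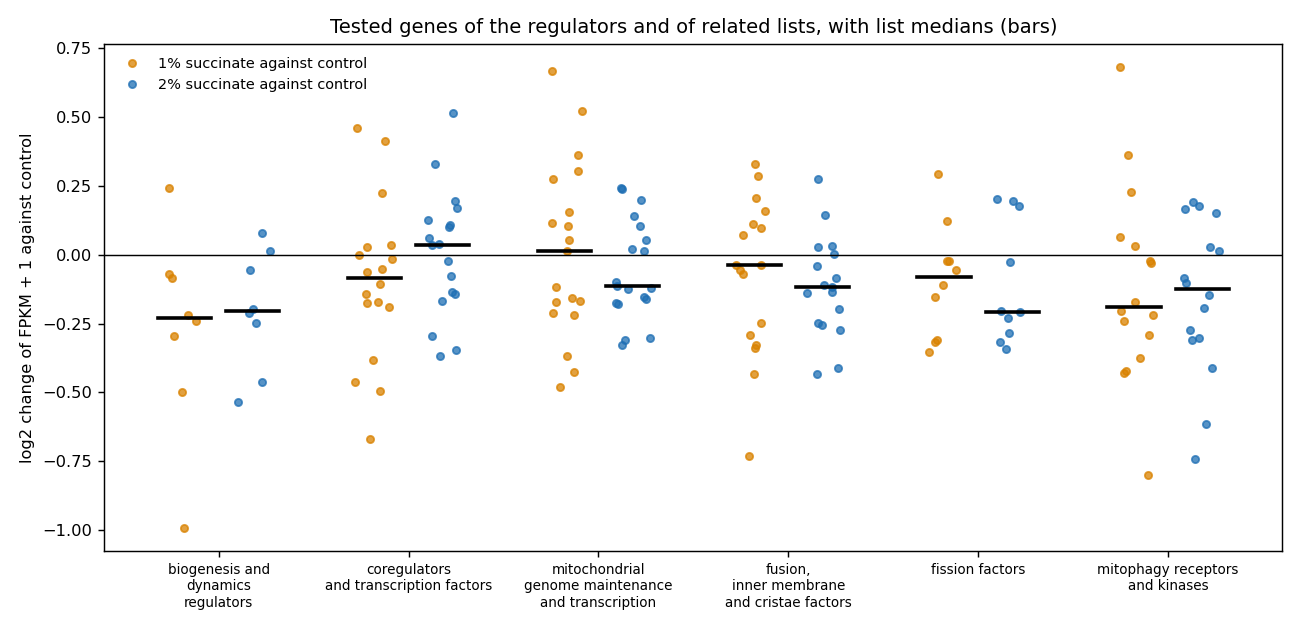
Log2 change of FPKM + 1 against control (vertical axis) for the tested genes of the 10 regulators and of 5 related lists at 1% and 2% succinate; each point is a gene and bars are list medians. The medians lie between -0.23 and 0.04, and the lowest points are PPARGC1A among the regulators and ULK1 among mitophagy genes.

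Across the 9 libraries the tested genes whose log2(FPKM + 1) was most like that of PPARGC1A were AP1S1 (Pearson r = 0.974), SMIM20 (0.973), HAUS4 (0.967), SAT1 (0.964) and FUCA1 (0.962). AP1S1, a subunit of a clathrin adaptor, measured 22, 22 and 17.6 FPKM in controls, 18.5, 13.8 and 9.82 at 1%, and 17.1, 16.5 and 14.2 at 2%. SAT1, which acetylates spermidine and spermine, was at 409, 335 and 321, then 305, 208 and 164, and 318, 313 and 303 FPKM. Like PPARGC1A, both were lowest in library 3 at 1%. Among the regulators the r with PPARGC1A was 0.865 for MFN2, 0.786 for POLG, 0.623 for MFN1, 0.476 for ESRRA, 0.324 for OPA1, -0.06 for TFAM and -0.48 for DNM1L. These values describe 9 libraries that share 3 diets and, in each library, a common depth and scaling, and they carry no test. The spread of r over all tested genes is not given here, so no r is read as particular to the regulators.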

How the data were processed

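RNA of 9 liver libraries, extracted with TRIzol and made into libraries with a NEBNext Ultra kit per the labels' protocols, was measured as FPKM per gene in 1 table that the authors deposited, the unit being named in its header. The sources used here name no aligner, counter, annotation or strand setting. Mouse builds (GRCm38, mm10) appear in the submitters' processing notes, but 20169 of 21257 names, after 13 mitochondrial locus tags had been replaced by symbols, match the sheep table of assembly ARS-UI_Ramb_v3.0, used for names and overlaps only. No coordinates or sequences are given.

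Reads were recovered for all 17402 genes above 0 in at least 2 libraries as whole multiples of the worth of 1 read (tolerance 0.01; up to a common factor). No pair of libraries was alike within sampling noise, chi-square divided by its degrees of freedom being at least 37.2. Limma 3.58.1 in R 4.3.3 was fitted to log2(FPKM + 1) of all 9 libraries, grouped by the treatment label, with an intensity trend, and tested on simulated data. A log2 change on this scale understates low genes. Intervals are 95%. Alternatives were a pseudocount of 0.1, other filters (none, or a mean FPKM of 5), quantile and median-ratio scaling, voom on recovered reads with at least 10 reads in 3 libraries, the library of conflicting labels at 2%, a replicate block, no intensity trend, fits of the compared groups alone and leaving out each library. Python 3.11.15, pandas 2.3.3, numpy 2.4.6 and matplotlib 3.10.9 were also used.

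The regulators and the gene lists were chosen with earlier results of these data known. Genes named were all 10 regulators, any gene of a related list that passed, the 2 of each list with the smallest p at each dose, the 5 most correlated with PPARGC1A, and ALB and ACTA1. MIEF1, MTERF4, CD163, CD5L, GZMB, CLEC4G and HBA1 were not analysed here. Markers of cholangiocytes and endothelium summed to 8.19 to 31.5 and 67.7 to 105 FPKM over the libraries, overlapping between groups.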

Additional observations from a re-analysis of the deposited data

How the results depend on the processing

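The count of regulators that passed was 0 in all 4 comparisons under each of the 19 alternatives, and the smallest adjusted p of any regulator was 0.0786 (PPARGC1A at 1% without library 1 at 1%). Of 730 alternative log2 changes of single regulators 695 kept their direction and 35 turned, each for a regulator whose own interval included 0. The median of the tested regulators, which is not among the 730, also turned at 2% against 1%. At 1% against control, quantile scaling, median-ratio scaling and voom gave 0.038, 0.076 and 0.072 for TFAM and 0.077, 0.088 and 0.089 for OPA1, and quantile scaling 0.071 for NRF1. At 2%, quantile scaling gave 0.011 for OPA1 (0.006 per percent in the trend). At 2% against 1%, median-ratio scaling gave -0.007 for TFAM. MFN1 was then -0.083 after median-ratio scaling, -0.078 with voom and -0.017 with the library of conflicting labels at 2%. MFN2 was -0.026, -0.089, -0.084 and -0.116 with quantile scaling, median-ratio scaling, voom and that library at 2%, OPA1 -0.065, -0.090 and -0.094 with the first 3 of these, and PPARGC1A -0.093 with the last. The median of the 8 tested regulators in that comparison was -0.009, -0.086, -0.081 and -0.051 in the same order. The cause was not tested. Leaving out each library gave, at 2% against control, -0.060 to 0.074 for TFAM and -0.005 to 0.174 for DNM1L. At 2% against 1% it gave -0.022 to 0.118 for MFN1, -0.067 to 0.095 for MFN2, -0.004 to 0.037 for OPA1 and -0.002 to 0.096 for the median. In the trend it gave -0.034 to 0.036 for TFAM and -0.015 to 0.068 for DNM1L.

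With the replicate number as a block, the count was 0 in each comparison and PPARGC1A at 1% had an adjusted p of 0.296. Over all genes the block moved the calls from 2 to 0 at 1%, from 6 to 1 at 2% and from 3 to 0 in the trend. After removal of group means, same-numbered libraries of different groups had correlations of -0.30 to 0.28, over 0.1 in 2 of 9 pairs. Libraries of different number had -0.293 to 0.453. With 3 libraries per group these values cannot tell whether the numbers pair the libraries. PPARGC1B rests on 35 to 94 reads per library, the fewest of the regulators.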
